A study of Mus musculus with 48 samples.

Results

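The genes described here encode carriers that move glucose, amino acids and lactate across membranes: every deposited gene model named as a member of the solute carrier families SLC1, SLC2, SLC3, SLC7, SLC16, SLC38 or SLC43. The rule was the gene name alone and used no measured value. It found 64 of the 21025 gene models, 12 in SLC2, 14 in SLC16, 2 in SLC3, 15 in SLC7, 7 in SLC1, 11 in SLC38 and 3 in SLC43. Each matched a current mouse symbol through its RefSeq accession.

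The study sequenced RNA from mouse early B-lineage cells with less of the zinc finger transcription factor Ikaros, the product of Ikzf1, and 30 of its libraries were used. All mice were of the C57BL/6 strain, and the labels give no age. Pro-B cells came from Ikzf1(fl/+) Cd79a(Cre/+) controls and from Ikzf1(fl/-) Cd79a(Cre/+) mice, called deleted here, with 2 libraries each. The same 2 genotypes were sequenced, again in 2 libraries each, as c-Kit-high pro-B cells and, on a Rag2(-/-) background that stops cells before the pre-B stage, as Rag2-null pro-B cells. In all 6 of these groups Cre is expressed from the B-lineage gene Cd79a, and the controls carry a floxed Ikzf1 allele too, so control and deleted cells differ in the other Ikzf1 allele. Wild-type pre-B cells, labelled total, gave 2 libraries. Cultured Ebf1(-/-) pre-pro-B cells lack a factor needed for B-cell commitment. They carried an empty vector, the control hairpin Ren713, or 1 of 2 hairpins against Ikzf1, Ik4056 and Ik2709, in 4 libraries per construct.

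Glucose enters lymphocytes mainly through facilitative carriers of the SLC2 family such as Slc2a1 (GLUT1) and Slc2a3 (GLUT3). Cells that ferment glucose release lactate with protons through the monocarboxylate carriers Slc16a1 (MCT1) and Slc16a3 (MCT4), which need the chaperone basigin or embigin to reach the membrane. Large neutral amino acids enter through a light chain such as Slc7a5 (LAT1) joined by a disulphide bond to the heavy chain Slc3a2 (CD98), while Slc1a5, Slc38a1 and Slc38a2 bring in glutamine and other small neutral amino acids with sodium. Developing B cells alternate between proliferating stages, pro-B and large pre-B, and quiescent small pre-B cells, and supply of these nutrients is known to matter most in the proliferating ones.

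The promoters printed here belong to the 4 carriers that passed the test as lower after Ikzf1 deletion in both pro-B and Rag2-null cells. The stretches were copied from RefSeq (GRCm38.p6), 5′ to 3′ on the gene's strand, and all lie before the annotated start. Capitals mark ACGTG, the core that hypoxia-inducible factors bind, in the glucose carrier Slc2a1 and the lactate exporter Slc16a3, and CACGTG, the E-box bound by Myc and by the glucose-sensing Mlx partners, in Slc16a1 and the amino acid carrier Slc43a1. In the last line they mark TTCCCA, the opposite-strand reading of the Ikaros core TGGGAA. That core was not found on either strand for Slc2a1, Slc16a1 or Slc16a3.
Slc2a1, chr4:119108669-119108744, plus strand: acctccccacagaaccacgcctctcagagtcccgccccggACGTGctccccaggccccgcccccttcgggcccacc
Slc16a3, chr11:120949000-120949066, plus strand: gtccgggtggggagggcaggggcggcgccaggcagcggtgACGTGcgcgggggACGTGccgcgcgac
Slc16a1, chr3:104638424-104638509, plus strand: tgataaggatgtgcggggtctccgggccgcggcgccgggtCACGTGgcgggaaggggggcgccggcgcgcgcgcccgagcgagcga
Slc43a1, E-box, chr2:84840219-84840304, plus strand: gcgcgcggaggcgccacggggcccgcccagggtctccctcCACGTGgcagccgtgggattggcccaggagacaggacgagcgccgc
Slc43a1, Ikaros core, chr2:84840163-84840228, plus strand: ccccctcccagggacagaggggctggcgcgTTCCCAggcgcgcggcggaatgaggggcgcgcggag

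Promoter windows of 250 bases before to 50 after a start were at hand for 47 of the 64 genes, and motifs were searched on both strands. ACGTG, which is contained in CACGTG, was found for 17 of the 47 (36.2%) and for 21.8% of all 27025 genes in the table. CACGTG was found for 8 (17.0%) against 8.09% of all genes, and TGGGAA for 8 (17.0%) against 28.3%. Of the 8 with CACGTG, 3 had a group mean of at least 3 RPKM. Slc16a1 and Slc43a1 fell after deletion in pro-B cells, and the third, Slc38a7, rose there and in c-Kit-high cells. TGATGNAA, the core of the element that Atf4 and its C/EBP partners use in amino acid shortage, was found for 3 (6.38%) against 4.51%, Slc1a4, Slc7a7 and Slc7a11. A match describes these letters only and is neither a bound site nor a cause, and the motifs were chosen with the expression results known.

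Values are RPKM, a read density scaled by gene length and library depth, which can be compared between genes. The read depth implied by the size of the smallest RPKM steps ran from 2.33 to 36.3 M per library, with c-Kit-high control 2 the shallowest. It is an estimate, since 48.1 to 74.7% of low values came out as whole reads in 26 libraries and only 31.1 to 37.4% in the other 4 (c-Kit-high control 1, c-Kit-high deleted 2 and both pre-B). Ikzf1 itself went from 59.2 and 56.4 to 45.3 and 48.9 RPKM in pro-B cells, from 101 and 124 to 64.5 and 86.0 in c-Kit-high cells, and from 62.3 and 56.2 to 39.9 and 36.7 in Rag2-null cells. Whole-gene RPKM also counts exons that Cre may leave in place, so it checks the deletion only in part. With a hairpin it was 23.7 to 60.6 RPKM in 8 libraries, against 106 to 145 in the 8 controls, with no overlap. Defining markers of B-lineage cells summed to 3628 to 9366 RPKM in the pro-B and pre-B libraries, and to 97.5 to 215 RPKM in the Ebf1(-/-) pre-pro-B libraries. In bulk RNA, fewer cells of a type and less RNA per cell cannot be told apart.

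Of the 64 genes, 2 (Slc7a12 and Slc7a15) were listed at 0 in all 30 libraries and 30 more stayed under 1 RPKM everywhere, among them Slc7a11, the light chain of the cystine importer, at up to 0.309 RPKM. The other 32 reached 1 RPKM in some library, 26 had a group mean of at least 3 RPKM in some group, and 16 did so in every group. The most abundant in RPKM was Slc1a5, at 246 and 226 in pro-B controls and up to 408 in a Rag2-null control. It was followed in pro-B controls by Slc16a1 (151 and 142 RPKM), Slc7a5 (141 and 151), Slc3a2 (87.2 and 86.1), Slc38a2 (73.3 and 70.7), Slc43a3 (62.6 and 58.6), Slc38a1 (57.5 and 62.2) and Slc7a1 (50.4 and 50.7), the last an importer of arginine and lysine. Slc16a1 and Slc7a5 overlapped in that order, as did Slc43a3 and Slc38a1. For glucose carriers, Slc2a1 made up 72.5 to 73.5% of the summed SLC2 RPKM in pro-B controls. In the heat map the rows of Slc38a10, Slc38a2, Slc38a1 and Slc16a1 stayed bright in every column, and those of Slc2a1, Slc7a5, Slc7a1 and Slc1a4 darkened in the c-Kit-high and pre-B columns.

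**Figure D1:**
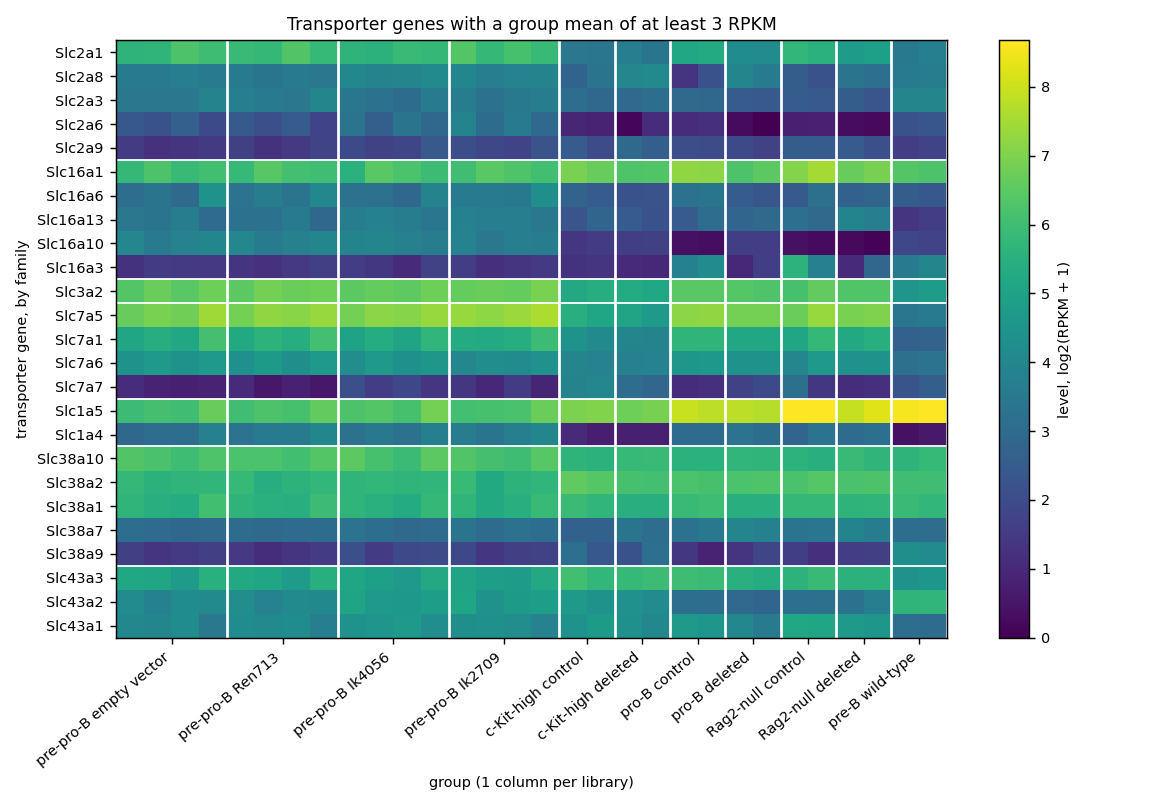
Levels of 25 of the 26 transporter genes with a group mean of at least 3 RPKM, as log2(RPKM + 1), with a row per gene ordered by family and a column per library, 30 in all. White lines separate groups and families. Slc1a5 is the brightest row in the Rag2-null control and pre-B columns, and Slc1a4 is near 0 in the pre-B columns (0.297 and 0.504 RPKM).

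To ask how the carriers respond to loss of Ikaros, deleted and control libraries were compared gene by gene with limma on log2(RPKM + 1), and fold differences and standard errors (SE) are on that scale, which understates changes of low genes. A gene entered a test with at least 1 RPKM in at least 2 libraries of the fit, which 30 of the 64 genes did in the pro-B and pre-B libraries. Calls were made where the p-value, adjusted over all genes by the Benjamini-Hochberg method, was under 0.05. Whether libraries of a group stem from different animals or cultures is not stated in the labels, and the spread behind these p-values may therefore be technical.

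In pro-B cells, the glucose carrier Slc2a1 and the lactate carriers Slc16a1 and Slc16a3 fell with Ikzf1 deletion, while the abundant amino acid carriers Slc1a5, Slc7a5, Slc3a2 and Slc38a2 were not called. Of the 30 genes tested, 9 fell and 3 rose, against 23.4% of all 11937 genes called in either direction, 9.89% lower and 13.5% higher. The control and deleted libraries did not overlap for 22 of the 30, against 64.9% of all genes. Their median log2 difference was -0.15, and that of all genes 0.03. The 9 that fell were 3 of 5 tested SLC2 genes, 3 of 8 SLC16 genes, 1 of 7 SLC38 genes and 2 of 3 SLC43 genes.

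Slc2a1, the main glucose carrier, was at 35.8 and 38.7 RPKM in control pro-B cells and at 17.5 and 17.0 RPKM in deleted cells. The groups did not overlap, and the deleted pair was the lower one by 2.16-fold in mean RPKM. The log2 difference was -1.07 (SE 0.14, limma adjusted p = 0.000154). Slc2a3, a carrier of high glucose affinity, fell from 7.02 and 6.63 to 4.73 and 4.32 RPKM (log2 difference -0.50, SE 0.16, adjusted p = 0.0343). Slc2a6, a carrier of lysosomal membranes, was low already and went from 1.13 and 1.32 RPKM to 0.188 in 1 deleted library and 0 in the other. Its log2 difference was -1.03 (SE 0.25, adjusted p = 0.00923).

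Slc2a8, a hexose carrier held in intracellular membranes, went the other way. It was at 1.49 and 3.55 RPKM in controls and at 14.6 and 10.98 RPKM in deleted cells, a 5.09-fold higher mean, with no overlap. The log2 difference was 2.02 (SE 0.27, limma adjusted p = 0.000155). The make-up of the SLC2 family changed accordingly: Slc2a1 held 72.5 to 73.5% of the summed SLC2 RPKM in controls and 43.8 to 48.7% in deleted cells, and Slc2a8 held 3.06 to 6.64% and 31.4 to 36.6%. The sum itself was 51.1 ± 3.4 RPKM in controls and 37.5 ± 3.6 RPKM in deleted cells (SD, n = 2 each).

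Both lactate carriers fell. Slc16a1 was at 151 and 142 RPKM in control and 75.4 and 88.2 RPKM in deleted pro-B cells, without overlap (log2 difference -0.84, SE 0.15, limma adjusted p = 0.00157). Slc16a3, the carrier typical of strongly glycolytic cells, was at 12.9 and 17.3 RPKM in controls and at 1.00 and 2.06 RPKM in deleted cells. This was the largest fall of any carrier in the comparison (log2 difference -2.69, SE 0.65, adjusted p = 0.0146), its SE was also the widest, and it was called in 1 of the 4 fits that left out a pro-B library, the one without deleted 2. Slc16a6, another member of the monocarboxylate family, fell from 8.72 and 9.46 to 4.82 and 3.95 RPKM (log2 difference -0.91, SE 0.22, adjusted p = 0.00888). Slc16a10, an aromatic amino acid carrier (TAT1), rose from 0.316 and 0.253 to 2.06 and 1.96 RPKM (log2 difference 1.23, SE 0.15, adjusted p = 8.39e-05). The summed SLC16 RPKM was 178 in each control library and 89.8 and 104 in the deleted ones.

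Of the SLC38 and SLC43 genes, 3 fell and 1 rose. Slc43a1, a facilitative carrier of leucine and other large neutral amino acids (LAT3), was at 24.2 and 22.7 RPKM in controls and 15.5 and 10.8 in deleted cells (log2 difference -0.80, SE 0.17, limma adjusted p = 0.0035). Slc43a3, a purine base carrier of the same family, fell from 62.6 and 58.6 to 44.2 and 40.3 RPKM (log2 difference -0.51, adjusted p = 0.0142). The glutamine carrier Slc38a1 fell from 57.5 and 62.2 to 42.5 and 42.7 RPKM (log2 difference -0.48, SE 0.10, adjusted p = 0.00454), and the lysosomal glutamine exporter Slc38a7 rose from 8.48 and 10.1 to 14.5 and 12.7 RPKM (log2 difference 0.51, adjusted p = 0.0292). All 4 pairs of groups were separate.

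The uptake pair Slc7a5 and Slc3a2 was not called. Slc7a5 was at 141 and 151 RPKM in controls and 116 and 115 RPKM in deleted cells (log2 difference -0.33, SE 0.19, limma adjusted p = 0.23), and Slc3a2 was at 87.2 and 86.1 against 83.7 and 77.8 RPKM (log2 difference -0.10, SE 0.14, adjusted p = 0.684). Slc7a1 was at 50.4 and 50.7 against 35.1 and 35.5 RPKM and missed the threshold (adjusted p = 0.0585). Slc1a5 was at 246 and 226 against 225 and 209 RPKM, and Slc38a2 at 73.3 and 70.7 against 72.8 and 77.3 RPKM (adjusted p = 0.53 and 0.767). None of the 4 tested SLC7 genes, the 2 SLC1 genes or the 1 SLC3 gene was called by limma, and at an unadjusted p under 0.05 there was 1 among them, Slc7a1. The deleted libraries still lay below the controls without overlap for Slc7a5, Slc3a2, Slc7a1, Slc7a6 and Slc1a5, while those of Slc38a2 overlapped. Groups did not overlap for 64.9% of all genes. These p-values do not show that the carriers stayed the same.

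The count of called genes depended on single libraries. It was 5 without control 2 and 7 without deleted 2, and 8 and 9 without the other two. The calls of Slc2a1, Slc2a8, Slc16a1, Slc16a10 and Slc43a1 held whichever library was left out, and those of Slc2a3 and Slc38a7 were lost each time. T-lineage markers summed to 243 and 236 RPKM in the controls and 141 and 135 RPKM in the deleted cells, with 5 of 11 at 0 in each group. Thy1 (146 and 138 against 65.7 and 54.9) and Lat were lower, while Lck (34.4 and 35.2 against 50.4 and 53.5) and Zap70 were higher. Stromal and endothelial markers summed to 87.7 and 124 against 56.1 and 54.9 RPKM. Cxcl12 was lower (31.2 and 45.3 against 9.89 and 9.60) and Pecam1 higher (16.6 and 14.3 against 29.7 and 29.0). The part of these markers in the differences of the carriers was not tested.

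**Figure D2:**
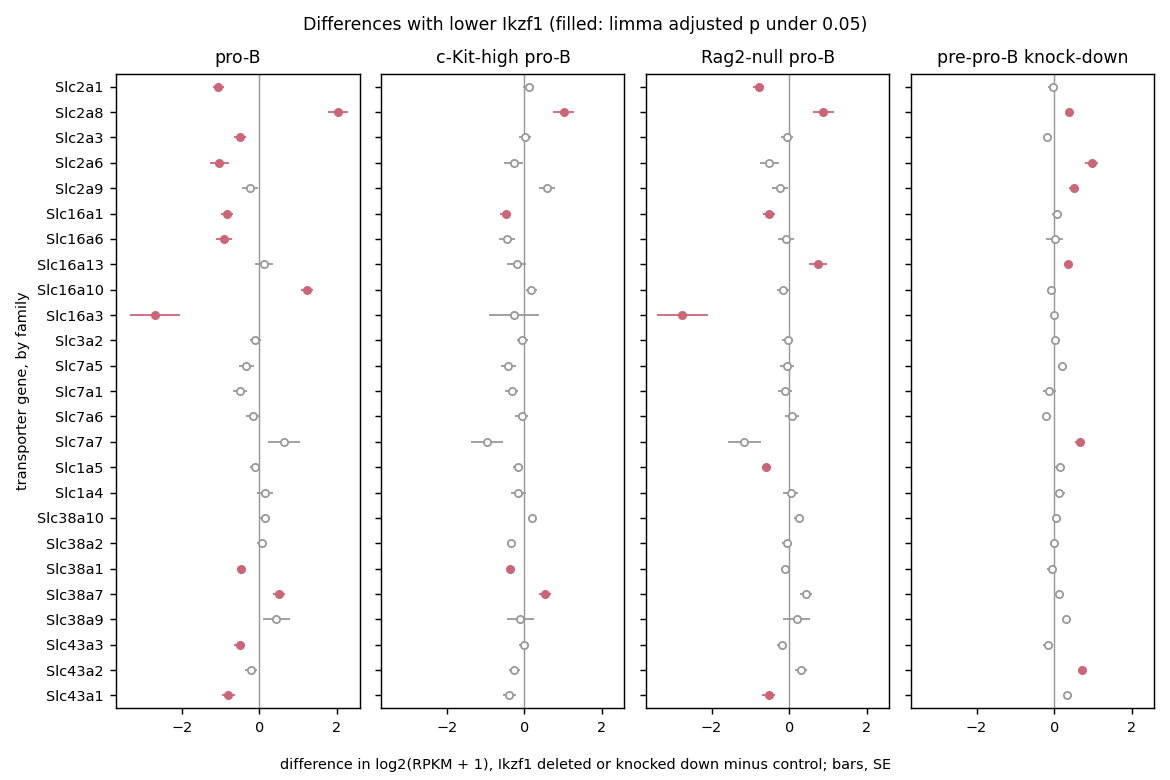
Differences in log2(RPKM + 1) of the same 25 genes between cells with deleted or knocked-down Ikzf1 and their controls, as points with SE bars, in 4 settings. Filled points passed limma's adjusted p of 0.05, and genes without a point were not tested. The knock-down panel is from the fit without the replicate block. Slc16a3 lies farthest left in the pro-B and Rag2-null panels (-2.69 and -2.75), and Slc2a8 is filled and right of 0 in all 4.

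In Rag2-null pro-B cells, where V(D)J recombination cannot take place, Slc2a1, Slc16a1 and Slc16a3 again fell and Slc2a8 rose. Here 5 of the 30 tested genes fell and 3 rose, 26.7% in all, against 22.3% of all genes called, 6.84% lower and 15.5% higher. Groups did not overlap for 19 of the 30, against 61.6% of all genes. After quantile normalization 4 fell and 1 rose, and after median-ratio scaling 5 fell and 1 rose. The medians were -0.07 for the carriers and 0.06 for all genes. Slc2a1 was at 52.8 and 45.3 RPKM in controls and 27.0 and 28.9 RPKM in deleted cells, without overlap (log2 difference -0.79, SE 0.14, limma adjusted p = 0.00173). It was the only one of the 8 calls to hold whichever library was left out. Slc2a8 rose from 4.95 and 3.54 to 9.19 and 7.92 RPKM (log2 difference 0.88, SE 0.27, adjusted p = 0.0348). That call was lost with a pseudocount of 0.1, with no filter and under either rescaling (0.58 with quantiles and 0.76 with median ratios), and without control 2, deleted 1 or deleted 2.

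Slc16a1 was at 133 and 179 RPKM in Rag2-null controls and 99.0 and 117 RPKM in deleted cells (log2 difference -0.52, SE 0.15, limma adjusted p = 0.0291). Slc16a3 was at 48.2 and 12.7 RPKM in controls and 1.03 and 6.29 RPKM in deleted cells. Control 1 stood far above control 2, and the groups did not overlap (log2 difference -2.75, SE 0.65, adjusted p = 0.0142). The same control 1 had 8.23 RPKM of Slc7a7, a light chain that exports arginine and lysine, where the other 3 Rag2-null libraries had 1.22 to 1.66 RPKM, and T-lineage markers of 332 RPKM where control 2 had 156 and the deleted cells 46.1 and 61.3. In control 1 Thy1 made up 196 RPKM of that sum and Lat 88.5, with Cd3e and Cd8a at 0. Zap70 went the other way, at 1.21 and 1.56 in controls against 3.11 and 2.45 in deleted cells. Without control 1 or without deleted 1 the difference of Slc16a3 was not called (log2 difference -1.83 in both fits).

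Slc1a5 passed the test in this setting, from 404 and 408 RPKM in controls to 239 and 304 RPKM in deleted cells (log2 difference -0.59, SE 0.12, limma adjusted p = 0.00395). The call for Slc1a5 was lost after quantile normalization (-0.34), with these 4 libraries fitted alone, with all 30 libraries in 1 fit and without deleted 1 (-0.42). Slc43a1 fell from 35.7 and 34.5 to 24.9 and 23.2 RPKM (log2 difference -0.53, SE 0.17, adjusted p = 0.0365). Slc16a13, a further member of the monocarboxylate family, rose from 7.98 and 6.94 to 14.1 and 12.04 RPKM (log2 difference 0.73, adjusted p = 0.0436). Not called were Slc7a5 (105 and 159 against 121 and 127 RPKM), Slc3a2 (70.7 and 94.3 against 78.7 and 79.3), Slc2a3 (4.77 and 4.40 against 4.93 and 3.85), Slc38a1 (53.6 and 53.2 against 49.3 and 49.9) and Slc38a2 (71.2 and 83.4 against 71.2 and 75.4). Of these, only the 2 groups of Slc38a1 did not overlap. Without deleted 1 a single call was left, and there were 5, 4 and 5 calls without control 1, control 2 and deleted 2. Monocyte and macrophage markers summed to 27.3 and 10.3 RPKM in controls and 42.4 and 35.1 RPKM in deleted cells. Most of each sum was Lyz2 (25.8 and 9.97 against 36.7 and 29.3). Stromal and endothelial markers summed to 23.8 and 26.2 against 90.1 and 69.2 RPKM. Cxcl12 was higher (2.23 and 5.20 against 34.3 and 17.6), while Pecam1 overlapped (16.4 and 11.95 against 14.7 and 20.1). The part of these markers was not tested.

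In pro-B cells with a high level of c-Kit, the receptor for stem cell factor, 2 carriers fell and 3 rose of 30 tested. This is 16.7%, against 17.2% of all genes, 5.60% lower and 11.6% higher, so the count is near the background. Groups did not overlap for 19 of the 30, against 53.7% of all genes. After quantile normalization 5 fell and 1 rose, and after median-ratio scaling 3 fell and 2 rose. The medians were -0.16 for the carriers and 0.03 for all genes. Slc2a8 was at 5.87 and 9.09 RPKM in controls and 15.2 and 16.5 RPKM in deleted cells, without overlap (log2 difference 1.01, SE 0.27, limma adjusted p = 0.0211). Slc16a1 was at a mean of 110.2 ± 14.3 (SD, n = 2) against 78.1 ± 1.8 RPKM, with no overlap (log2 difference -0.49, SE 0.15, adjusted p = 0.0459), and Slc38a1 at 58.9 and 51.2 against 41.9 and 43.2 RPKM (log2 difference -0.36, adjusted p = 0.0295). Slc38a7 rose from 5.53 and 5.51 to 9.43 and 7.53 RPKM (log2 difference 0.53, adjusted p = 0.0308).

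Slc2a1 was low in these cells with or without deletion, at 9.88 and 9.55 RPKM in controls and 11.99 and 9.31 RPKM in deleted cells, and the groups overlapped (limma adjusted p = 0.657). Slc16a3 was at 1.39 and 1.51 against 1.07 and 0.967 RPKM, and Slc2a3 at 7.88 and 6.43 against 6.81 and 7.78 RPKM. Slc7a5 (42.7 and 33.9 against 32.2 and 25.0), Slc3a2 (36.4 and 41.8 against 39.7 and 35.7), Slc1a5 (124 and 131 against 108 and 119), Slc38a2 (92.7 and 81.8 against 69.97 and 67.4) and Slc43a1 (20.8 and 25.6 against 19.3 and 15.8) were not called either, all in RPKM. No call held in every fit with a library left out: there were 2 calls without control 1, 3 without control 2, 0 without deleted 1 and 3 without deleted 2. Control 1 and deleted 2 have consecutive library numbers, and within that pair, a split chosen after the values were seen, the log2 difference was 1.35 for Slc2a8, -0.59 for Slc16a1 and -0.08 for Slc2a1. Within the other 2 libraries it was 0.68 for Slc2a8, -0.38 for Slc16a1 and 0.30 for Slc2a1. Those 2 are no pair by number: deleted 1 is numbered just before the pro-B libraries, and control 2, the shallowest library, far after it. Granulocyte markers summed to 710 and 114 RPKM in the controls and to 151 and 350 RPKM in the deleted cells, and their part was not tested.

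Of the 30 tested carriers, 1 fell in all 3 deletions (Slc16a1) and 1 rose in all 3 (Slc2a8). Slc16a1 lost its call under 4 of 6 other settings in c-Kit-high cells and 4 of 6 in Rag2-null cells, and Slc2a8 lost it under 4 of 6 in Rag2-null cells, with the same direction throughout. A further 6 were called in 2 settings, 7 in 1 and 15 in none, and no gene was called in opposite directions. The 3 deletions were fitted together and share 1 estimate of the spread, but no libraries.

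The differences between settings were tested themselves, as interactions. For c-Kit-high against pro-B cells 2 of the 30 carriers (6.67%) were called, 1 each way. Of all genes 6.70% were called, 4.54% higher and 2.16% lower, so this count is at the background. The effect on Slc2a1 was 1.18 higher on the log2 scale in c-Kit-high cells (SE 0.20, limma adjusted p = 0.00521), and that on Slc16a10 lower (log2 difference of effects -1.05, SE 0.21, adjusted p = 0.0127), where it was at 1.60 and 1.85 RPKM in c-Kit-high controls and 2.02 and 2.15 in deleted cells. For Rag2-null against pro-B cells the effect on Slc16a10 alone was called (-1.40, SE 0.21, adjusted p = 0.00105), against 13.1% of all genes, 8.54% higher and 4.55% lower, and Slc16a10 was at most 0.312 RPKM in the 4 Rag2-null libraries. The count of calls for Rag2-null cells was 2 without pro-B control 2, Rag2-null control 1 or Rag2-null deleted 1, 3 without Rag2-null deleted 2 and 4 without Rag2-null control 2. The interactions share the 4 pro-B libraries. For all other carriers, a call in 1 setting and not in another does not show that the settings differ.

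**Figure D3:**
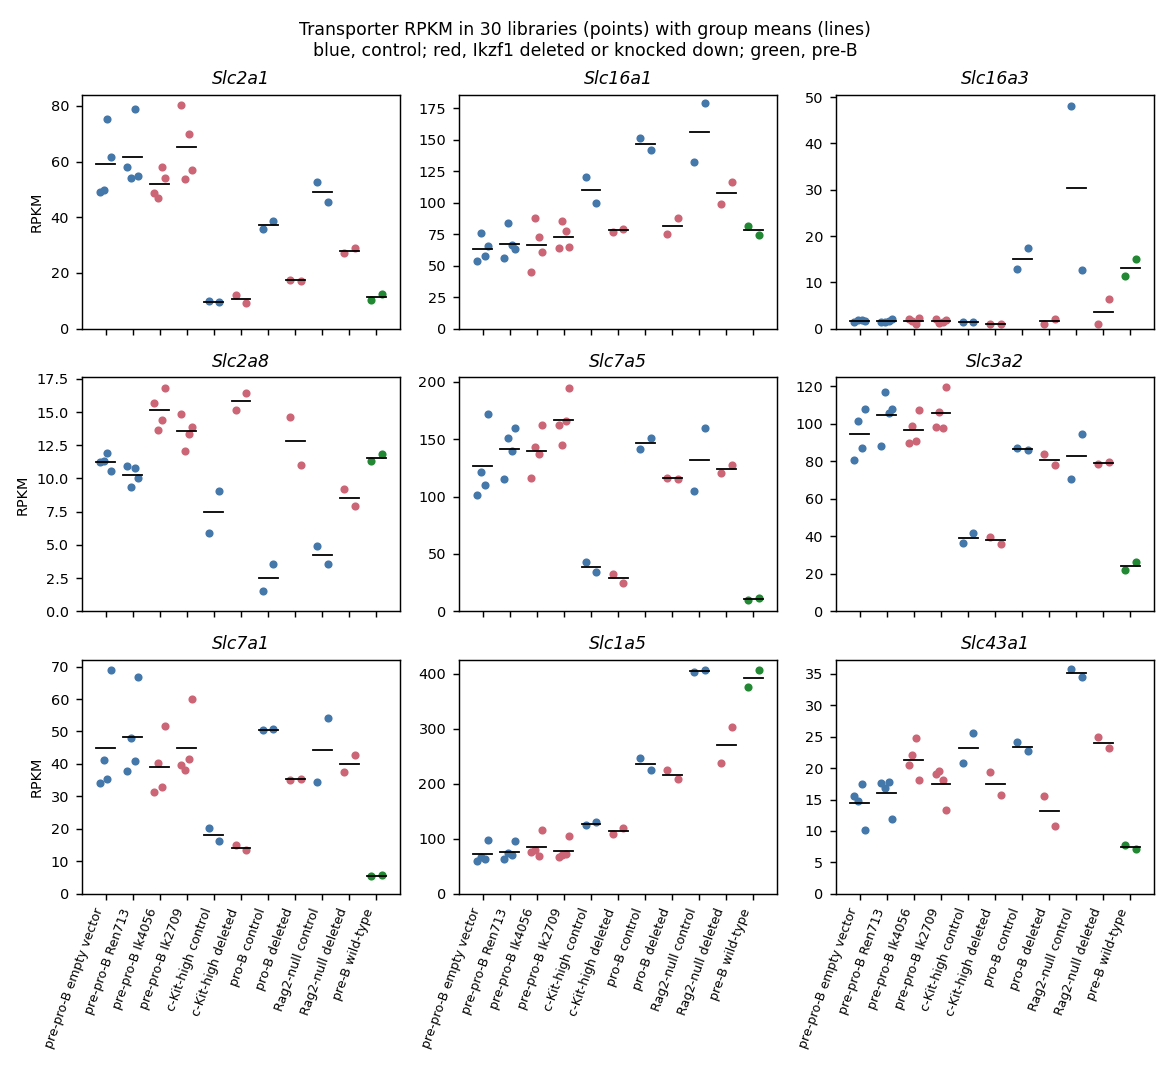
RPKM of 9 carriers in each of 30 libraries (points) with group means (lines), on linear axes from 0. Blue points are controls, red points deleted or knocked-down cells and green points pre-B cells. The red pro-B points of Slc2a1, Slc16a1 and Slc16a3 lie below the blue ones and those of Slc2a8 above, while Slc7a5, Slc3a2 and Slc7a1 are low in the c-Kit-high and pre-B columns.

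The enzymes that use the imported glucose were counted from a list of 25 genes for glucose phosphorylation, glycolysis and lactate formation. In pro-B cells 11 of the 24 tested fell and 0 rose (limma, with 13 lower and 1 higher at an unadjusted p under 0.05), against 9.89% of all genes lower, and their median log2 difference was -0.45. In Rag2-null cells 9 fell and 1 rose (median -0.25), against 6.84% of all genes lower. In c-Kit-high cells 2 fell and 2 rose (median -0.001), against 5.60% lower. Ldha, the lactate dehydrogenase chain that makes lactate, went from 837 and 822 to 384 and 411 RPKM in pro-B cells and from 1135 and 1247 to 470 and 582 RPKM in Rag2-null cells. In c-Kit-high cells it was at 151 and 177 against 159 and 138 RPKM, and the effect there differed from the pro-B effect by 0.92 on the log2 scale (SE 0.18, adjusted p = 0.0107). So did the effects on Aldoa, Pkm and Tpi1, by 1.17, 1.07 and 0.93.

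The chaperones of the lactate carriers moved in opposite directions. Emb, embigin, rose from 8.51 and 10.9 to 23.3 and 27.8 RPKM in pro-B cells (log2 difference 1.31, SE 0.29, limma adjusted p = 0.00584) and from 8.93 and 4.29 to 36.8 and 20.7 RPKM in Rag2-null cells (log2 difference 1.98, SE 0.29, adjusted p = 0.000433). Bsg, basigin, which was named after its values were seen, fell from 230 and 244 to 172 and 166 RPKM in pro-B cells (log2 difference -0.48, adjusted p = 0.0151) and from 347 and 315 to 263 and 235 RPKM in Rag2-null cells (log2 difference -0.41, adjusted p = 0.036). In c-Kit-high cells neither was called (adjusted p = 0.161 and 0.739). Myc, also named after its values were seen, was not called in pro-B cells (log2 difference -0.15, limma adjusted p = 0.601) or c-Kit-high cells (-0.21, adjusted p = 0.462). In Rag2-null cells it rose from 145 and 209 to 242 and 280 RPKM (log2 difference 0.58, SE 0.17, adjusted p = 0.0291). Its part in the differences of the carriers was not tested.

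Amino acid response genes, which Atf4 induces in shortage, include enzymes of serine and asparagine synthesis. Of 30 tested, 5 fell and 2 rose in pro-B cells, 5 fell and 1 rose in Rag2-null cells, and 2 fell in c-Kit-high cells, against 23.4%, 22.3% and 17.2% of all genes called in either direction. Phgdh, which opens serine synthesis, fell in all 3, from 68.0 and 65.0 to 26.9 and 26.7 RPKM in pro-B cells, from 98.1 and 107 to 63.5 and 61.1 in Rag2-null cells and from 27.0 and 23.0 to 18.6 and 15.4 in c-Kit-high cells (limma adjusted p = 1.86e-05, 0.00194 and 0.0133). Trib3, a pseudokinase induced by Atf4, also fell in all 3 (log2 difference -1.11, -0.93 and -1.57). Of the transporters outside the 7 families, 16 were tested, and 5 rose and 2 fell in pro-B cells, against 13.5% of all genes higher and 9.89% lower. The largest rise was that of the peptide and histidine carrier Slc15a3 (log2 difference 1.23, adjusted p = 0.00054), which rose in c-Kit-high cells too (1.26, adjusted p = 0.000573).

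With Ikzf1 knocked down in Ebf1(-/-) pre-pro-B cells, the SLC2 family members Slc2a6, Slc2a8 and Slc2a9, the amino acid carriers Slc43a2 and Slc7a7 and Slc16a13 rose, and Slc2a1, Slc16a1 and Slc16a3 were not called. In a fit that treated all libraries as unpaired, 6 of the 27 carriers tested rose and 0 fell (limma, with 9 higher and 1 lower at an unadjusted p under 0.05). This is 22.2% of them, against 19.4% of all 10744 genes called, 13.4% higher and 6.04% lower, so the count is near the background. After quantile normalization 5 rose and 1 fell, and after median-ratio scaling 6 rose and 1 fell. The medians were 0.12 for the carriers and 0.01 for all genes. The 4 replicates fall into 4 runs of consecutive library numbers, and libraries of a run deviate together, so the fit with a replicate block is given as well: it called 13 carriers higher and 4 lower, with 51.9% of all genes.

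Slc2a6 was at 4.204, 3.55, 5.25 and 2.82 RPKM with the empty vector and 4.48, 3.34, 4.70 and 2.34 RPKM with Ren713. It was at 9.10, 5.20, 9.10 and 6.44 RPKM with Ik4056 and at 13.7, 7.34, 11.01 and 6.88 RPKM with Ik2709. Within each of the 4 runs both Ikzf1 hairpins exceeded both controls, and only the pooled groups overlapped, at Ik4056 in run 2. The log2 difference of all hairpin libraries from all controls was 0.97 (SE 0.17, limma adjusted p = 0.000592).

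Slc43a2, a system L carrier of large neutral amino acids (LAT4), was at 17.2, 12.9, 17.5 and 17.0 RPKM with the empty vector and 17.9, 13.3, 16.3 and 15.6 RPKM with Ren713. With Ik4056 it was at 32.3, 24.3, 24.0 and 27.6 RPKM and with Ik2709 at 33.4, 20.7, 25.7 and 27.7 RPKM. The groups did not overlap (log2 difference 0.71, SE 0.10, limma adjusted p = 0.000113), which among the carriers held only for Slc43a2 and Slc2a8, 2 of the 27 tested, against 7.06% of all genes. Slc2a8 was at 9.39 to 11.95 RPKM in the 8 controls and at 12.1 to 16.8 RPKM in the 8 hairpin libraries (log2 difference 0.38, SE 0.07, adjusted p = 0.000587).

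The smaller calls were Slc7a7 (0.471 to 1.13 RPKM in controls, 1.61 to 3.38 with Ik4056 and 0.870 to 1.86 with Ik2709, log2 difference 0.66, SE 0.13, limma adjusted p = 0.00134), the urate carrier Slc2a9 (1.37 to 2.43 RPKM against 2.19 to 4.39, log2 difference 0.50, SE 0.12, adjusted p = 0.00671) and Slc16a13 (6.58 to 11.4 against 9.68 to 13.2 RPKM, log2 difference 0.36, SE 0.11, adjusted p = 0.0227). All 3 were above both controls of their run with both hairpins in 4 of 4 runs. Taken alone, Ik2709 did not give a call for Slc7a7 (log2 difference 0.39, adjusted p = 0.15), and neither hairpin alone did for Slc16a13 (adjusted p = 0.078 and 0.0758). Slc43a1 and the lysosomal arginine sensor Slc38a9 were also above both controls in 4 of 4 runs (log2 differences 0.33 and 0.31). Both were called with the replicate block (adjusted p = 3.32e-05 and 0.00013), and neither was called without it (limma adjusted p = 0.07 and 0.0533).

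Of the 9 carriers that fell after deletion in pro-B cells, 8 were not called here without the block, and Slc2a6 was called in the opposite direction, higher. Slc2a1 ran from 49.2 to 79.0 RPKM in the controls and from 47.0 to 80.4 RPKM in the hairpin libraries (log2 difference -0.04, SE 0.12, limma adjusted p = 0.876), Slc16a1 from 53.6 to 83.8 and from 45.2 to 87.7 RPKM (0.08, SE 0.13, adjusted p = 0.757), and Slc16a3 stayed between 1.03 and 2.18 RPKM in all 16 libraries. Slc3a2 (log2 difference 0.03), Slc38a1 (-0.06) and Slc38a2 (-0.01) were not called with or without the block. With the block, Slc7a5 (0.20, adjusted p = 0.0083) and Slc1a5 (0.14, adjusted p = 0.00925) were called higher, and Slc2a3 (-0.20, adjusted p = 0.00765), Slc7a1 (-0.13, adjusted p = 0.0459), Slc7a6 (-0.20, adjusted p = 0.000687) and Slc43a3 (-0.16, adjusted p = 0.00392) lower. Among the 9 carriers, the fit with the block thus called Slc2a3 and Slc43a3 lower, as in pro-B cells, and Slc43a1 and Slc2a6 higher. Whether the pro-B and pre-pro-B responses differ was not tested.

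The sums of other cell types' markers moved with the hairpins, but single markers did not all follow. The 13 granulocyte markers summed to 30.4 to 126 RPKM in the 8 controls and to 536 to 1365 RPKM in the 8 hairpin libraries, and the 12 monocyte and macrophage markers to 6.30 to 14.7 and 41.2 to 84.4 RPKM. The 11 T-lineage markers summed to 596 to 961 RPKM in the controls and 291 to 516 RPKM with the hairpins. Thy1 was at 461 to 747 RPKM in the controls and 202 to 370 with the hairpins, while Cd4 was higher (0.104 to 0.517 against 0.553 to 3.36). Of the 13 granulocyte markers, 4 to 5 were at 0 in all libraries of a group. Mpo (21.1 to 90.0 against 110 to 424 RPKM) and Prtn3 (3.96 to 26.9 against 331 to 1061) were higher, while S100a8 and S100a9 were at 0 in all 16 libraries. The macrophage marker Adgre1 ran lower with the hairpins, with overlap (1.8 to 7.4 against 0.60 to 3.2 RPKM). The part of these markers in the rises of Slc2a6, Slc43a2, Slc7a7 and the others was not tested. Outside the 7 families, 8 of 15 tested transporters rose and 0 fell, against 13.4% of all genes higher (limma, with 10 higher and 0 lower at an unadjusted p under 0.05), led by Slc15a3 (log2 difference 1.94, SE 0.07, adjusted p = 1.04e-10) and followed by the creatine carrier Slc6a8 (0.83), the lysosomal cationic amino acid carrier Slc66a1 (0.67) and the lysosomal cystine exporter Ctns (0.62). Emb rose as well (log2 difference 0.46, adjusted p = 0.00607).

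**Figure D4:**
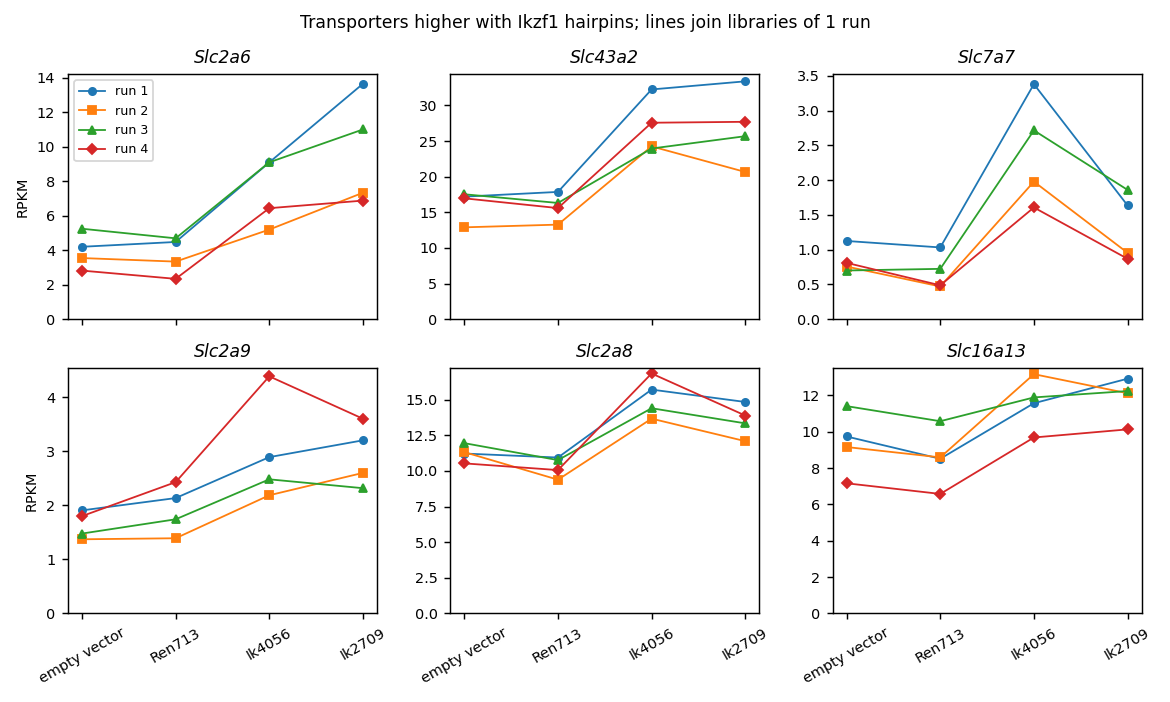
RPKM of the 6 carriers called higher with Ikzf1 hairpins in Ebf1(-/-) pre-pro-B cells in the fit without the replicate block, on linear axes from 0, with the 4 constructs along the x axis. Each line joins the 4 libraries of 1 run, and in all 6 panels both hairpin points of a line lie above both of its control points.

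The control libraries also let the stages be set side by side, but isolation or culture and library series change with the stage, so these cannot be told apart. Genotype changes too for the pre-B and pre-pro-B cells, while c-Kit-high and pro-B controls share it. The 3 stage comparisons share the 2 pro-B control libraries. c-Kit-high pro-B controls had less RNA of the amino acid importers Slc7a5, Slc3a2, Slc1a4, Slc1a5 and Slc7a1 than pro-B controls. Of the 30 carriers 11 were lower and 7 higher, against 50.8% of all genes called, 23.0% lower and 27.8% higher, and groups did not overlap for 21, against 75.8% of all genes. Medians were -0.03 for the carriers and 0.08 for all genes.

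Slc7a5 was at 42.7 and 33.9 RPKM in c-Kit-high and 141 and 151 RPKM in pro-B controls (log2 difference -1.92, SE 0.19, limma adjusted p = 1.01e-05), and its partner Slc3a2 at 36.4 and 41.8 against 87.2 and 86.1 RPKM (-1.13, SE 0.14, adjusted p = 6.07e-05). The ratio of their RPKM was 0.810 to 1.17 in c-Kit-high and 1.62 to 1.76 in pro-B controls, so the light chain was lower by more than the heavy chain. Slc1a4, a carrier of alanine, serine and cysteine, was at 1.10 and 0.660 against 7.19 and 7.31 RPKM (-2.14, SE 0.20, adjusted p = 7.47e-06). Slc7a1 (20.2 and 16.4 against 50.4 and 50.7 RPKM, log2 difference -1.43) and Slc1a5 (124 and 131 against 246 and 226 RPKM, log2 difference -0.88) were lower too, as were Slc2a1 (-1.83), Slc16a3 (-2.70), Slc16a1 (-0.41), Slc7a6, Slc16a6 and Slc38a7. None of these groups overlapped.

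The carriers higher in c-Kit-high controls were Slc7a7 (13.7 and 15.3 against 1.21 and 1.32 RPKM, log2 difference 2.77, SE 0.42, limma adjusted p = 0.000286), Slc38a9 (8.07 and 4.23 against 1.67 and 0.798), Slc43a2 (24.0 and 20.5 against 7.82 and 7.67) and Slc2a8 (5.87 and 9.09 against 1.49 and 3.55), with Slc16a7, Slc16a10 and Slc16a11 at under 2 RPKM. Slc2a3, Slc38a1, Slc38a2 and Slc43a1 were not called. Granulocyte markers summed to 710 and 114 RPKM in the c-Kit-high controls and 0.580 and 0.822 RPKM in the pro-B controls, where 9 of 13 were at 0, and their part was not tested. Of the 30 amino acid response genes, 24 were lower and 2 higher (median -1.14), against 23.0% of all genes lower and 27.8% higher. Among the lower ones was Asns, asparagine synthetase, at 0.957 and 0 against 19.5 and 19.5 RPKM. Txnip, which removes glucose carriers from the membrane, was higher (132 and 188 against 27.6 and 30.6 RPKM, log2 difference 2.40, SE 0.18, adjusted p = 1.72e-06).

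Wild-type pre-B cells differed from pro-B controls in 22 of the 30 carriers, 11 each way, against 68.8% of all genes, 36.9% lower and 31.9% higher, so this count is near the background. Groups did not overlap for 28 of the 30, against 87.3% of all genes, and medians were -0.16 for the carriers and -0.07 for all genes. Slc7a5 was at 9.48 and 11.1 RPKM in pre-B cells, 14.2-fold lower in mean RPKM than in pro-B controls (log2 difference -3.71, SE 0.19, limma adjusted p = 6.5e-09). Slc3a2 was at 21.8 and 26.3 RPKM (-1.81, SE 0.14, adjusted p = 2.88e-07), and the ratio of light to heavy chain was 0.423 to 0.436. Slc7a1 was at 5.51 and 5.75 RPKM (-2.96) and Slc1a4 at 0.297 and 0.504 RPKM (-2.56), and no group overlapped.

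Lower in pre-B cells were also Slc2a1 (10.3 and 12.5 RPKM, log2 difference -1.63, limma adjusted p = 6.36e-07), Slc16a1 (81.6 and 74.4 RPKM, -0.90), Slc43a1 (7.70 and 7.21 RPKM, -1.53), Slc43a3 (21.2 and 22.7 RPKM, -1.43), Slc7a6, Slc16a13 and Slc16a6. Against this direction, Slc1a5 was higher (377 and 407 RPKM, log2 difference 0.73, SE 0.12, adjusted p = 0.000156), as were Slc2a3 (14.5 and 14.9 RPKM, 1.00), Slc43a2 (49.6 and 51.8 RPKM, 2.56), Slc38a9 (18.9 and 17.2 RPKM, 3.12), Slc2a8 (11.3 and 11.9 RPKM, 1.90), Slc2a6 (3.59 and 3.97 RPKM, 1.10) and Slc7a7 (3.78 and 5.22 RPKM, 1.27). Slc38a5 was at 2.01 and 2.04 RPKM in pre-B cells and was listed at 0 in both pro-B controls, and Slc16a10, Slc38a6 and Slc16a7 made up the 11. Slc16a3 (11.3 and 14.9 RPKM), Slc38a1 (56.5 and 53.1) and Slc38a2 (64.3 and 63.9) were not called.

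Granulocyte markers summed to 7978 and 8308 RPKM and monocyte and macrophage markers to 496 and 647 RPKM in the pre-B libraries, against at most 0.822 and 14.1 RPKM in the pro-B controls. None of the 13 and 12 markers was at 0 in both pre-B libraries, and the B-lineage markers summed to 6460 and 7383 RPKM. The part of the myeloid markers in the higher and lower carriers was not tested. Among amino acid response genes 26 of 30 were lower and 1 higher (median -1.49), and among glucose and lactate enzymes 16 of 24 were lower and 5 higher (median -1.54). Of all genes, 36.9% were lower and 31.9% higher. Myc, the factor that drives many of these carriers in proliferating lymphocytes, was at 9.64 and 9.62 RPKM in pre-B cells and 260 and 273 RPKM in pro-B controls (log2 difference -4.65, SE 0.17, limma adjusted p = 8.21e-10), and Txnip at 167 and 166 against 27.6 and 30.6 RPKM.

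Control Ebf1(-/-) pre-pro-B cells, compared with pro-B controls in a fit of all 30 libraries, had 10 carriers higher and 8 lower of 30, against 55.5% of all 12272 genes, 25.3% higher and 30.1% lower. After quantile normalization the split was 12 higher and 6 lower. Groups did not overlap for 18 of the 30, against 58.3% of all genes. Medians were 0.07 for the carriers and -0.06 for all genes. Slc16a10 stood out in level, at 10.7 to 15.2 RPKM in the 8 control libraries against 0.316 and 0.253 RPKM (log2 difference 3.48, SE 0.13, limma adjusted p = 3.27e-16). Slc2a1 (49.2 to 79.0 RPKM, log2 difference 0.66), Slc2a3 (9.75 to 14.7, 0.65), Slc2a8 (9.39 to 11.95), Slc2a6 (2.34 to 5.25, 1.09), Slc43a2 (12.9 to 17.9, 0.95) and Slc38a10 (62.3 to 81.2, 0.66) were higher too, as were Slc16a7 and Slc16a13. Slc1a5 was lower (60.6 to 98.9 RPKM, log2 difference -1.68, SE 0.19, adjusted p = 6.89e-08), with Slc16a1 (53.6 to 83.8, -1.17), Slc16a3 (1.38 to 2.09, -2.58), Slc38a2 (41.6 to 55.3, -0.53), Slc43a3 (-0.79), Slc43a1 (-0.61), Slc2a9 (-0.57) and Slc38a7 (-0.32). Slc7a5 (101 to 172 RPKM), Slc3a2 (80.6 to 117 RPKM) and Slc38a1 (40.5 to 65.3 RPKM) overlapped the pro-B controls and were not called (adjusted p = 0.492, 0.213 and 0.112).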

How the data were processed

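RPKM values are as deposited by the authors for each library. TopHat 1.4.1, HTSeq 0.5.3, DESeq 1.8.3 and the mm9 build are named per the submitters' processing notes, with roles that are not given in the sources used here. Libraries were strand-specific per the labels' protocols, but whether counting used strand is not given there. No counts were used. Groups came from the labels.

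On log2(RPKM + 1), groups were compared by limma (version 3.58.1, run in R 4.3.3), with trend and robust moderation and Benjamini-Hochberg adjustment over all genes, and the test was checked on simulated data. The 14 pro-B and pre-B libraries made 1 fit (7 residual degrees of freedom), the 16 knock-down libraries another (12), and all 30 the third (19). In the knock-down, all 24 same-run pairs of libraries deviated together (lowest r 0.52, median 0.775, across genes), so the numbers pair the libraries. Members and lists were chosen with earlier results of these data known. Named carriers had a group mean of at least 3 RPKM or were called, apart from those named as low or absent or for a promoter match, and named other genes come from the lists, up to 4 called per list and comparison, apart from those said to be outside. Single cell type markers were named after their values were seen. For 1 carrier the results are not reported here, though counts include it. Implied depth counted low values within 0.02 of a whole read. Python 3.11.15, pandas 2.3.3, numpy 2.4.6 and matplotlib 3.10.9 were used.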

Additional observations from a re-analysis of the deposited data

Results flagged for a closer look

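Among the 104 groups of 4 knock-down libraries tested, 8 held a library whose gap to its nearest neighbour was above Dixon's 95% critical value (0.829 of the range for 4). Chance flags about 1 in 20 groups. Run 4 held the library standing apart for 6 of them: Slc2a3 (13.82 RPKM) and Slc16a6 (20.62) with the empty vector, Slc16a6 (18.76), Slc7a1 (60.07) and Slc1a5 (104.9) with Ik2709, each the highest, and Slc43a1 with Ren713, the lowest (11.98). The others were Slc2a1 at 79.02 RPKM with Ren713 in run 3, the highest, and Slc43a2 at 12.9 RPKM with the empty vector in run 2, the lowest.

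For 3 deletion effects the test of the difference between settings was passed: Slc16a10 in Rag2-null against pro-B cells (log2 difference of effects -1.395), and in c-Kit-high against pro-B cells Slc2a1 (1.176) and Slc16a10 (-1.046). The call of Slc16a10 in c-Kit-high cells was lost without pro-B control 2, and the other two held with any library left out.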

How the results depend on the processing

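No called carrier changed sign under any alternative run. Called carriers numbered 12 in the pro-B deletion (5 to 9 with a library left out), 5 in c-Kit-high cells (0 to 3), 8 in Rag2-null cells (1 to 5) and 6 in the knock-down (6 to 7), where the replicate block gave 17. The interactions gave 1 for Rag2-null cells (1 to 4) and 2 for c-Kit-high cells (2 to 3). In c-Kit-high cells there were 8 calls with no filter, 2 with the compared libraries alone and 3 with all 30 libraries in 1 fit, the last an alternative chosen after seeing the data. In Rag2-null cells there were 5 with no filter, 5 after quantile normalization and 4 with the compared libraries alone. The Rag2-null interaction had 2 with no filter and 3 after quantile normalization. In the 3 stage comparisons every alternative stayed within 1.5 times the 18, 22 and 18 calls.

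Quantile normalization and median-ratio scaling moved the median of all genes in the Rag2-null deletion by -0.13 and -0.10. The higher and lower calls then split 1 to 4 and 1 to 5 there (3 to 5 as deposited), 1 to 5 and 2 to 3 in c-Kit-high cells (3 to 2), and 5 to 1 and 6 to 1 in the knock-down (6 to 0). In control pre-pro-B cells quantile normalization gave 12 to 6 (10 to 8 as deposited). In simulated pro-B data of 11937 genes, 77% of changes of 1 on the log2 scale and 99% of changes of 2 were recovered, so smaller changes can be missed. The changes were planted in genes with a mean log2(RPKM + 1) above 3, so these rates do not cover carriers at lower levels. Only 100 changes of each size were planted, and groups were otherwise alike. In the real pro-B deletion 23.4% of genes were called, so the rates need not hold there. Pro-B and pre-B groups hold 2 libraries each, and depth is uncertain in c-Kit-high and pre-B libraries.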
